A study of Homo sapiens with 12 samples.

Results

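The 56 genes described here encode RNA polymerase I with its factors and proteins that build ribosomes in the nucleolus. They were taken by symbol from a list of 8 functional roles and make up 56 of the 58735 genes in the count table. All 56 passed the filter on low counts and were tested together with the other genes, 17729 in all.

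Polyadenylated RNA was sequenced from HEK293T cells, a wild-type human embryonic kidney line transformed with adenovirus DNA and carrying the large T antigen of a simian virus, with 3 libraries in each of 4 groups. Cells of the DMSO group were given the vehicle of the probe. The CEP group received a clickable electrophilic purine, a covalent protein probe, for 1 h at a dose given as 25 µM in the series design but in mM in the treatment protocol of the labels. The 4SU group received 4-thiouridine, a uridine analog that cells build into RNA, at 100 µM for 16 h, and the CEP+4SU group received both compounds. The labels give one protocol with ultraviolet crosslinking for the 12 libraries and do not say whether cells without 4SU were irradiated. All samples came from one cell line, so the results describe that line alone. In bulk RNA, fewer cells with a transcript and less of that transcript per cell cannot be told apart.

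RNA polymerase I transcribes the long ribosomal RNA precursor in the nucleolus, where UBTF and RRN3 place it on the promoter. The precursor is then modified by small nucleolar ribonucleoproteins (snoRNPs), folded and cut in the small subunit (SSU) processome, and separated into particles that mature into the 40S and 60S subunits. The machinery responds to growth signals in dividing cells, and the transcription factor MYC is a known activator of many of its genes. The comparisons asked whether the mRNAs of this machinery differed in cells given the probe, the nucleoside or both.

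Counts on genes ranged from 16569114 to 24644734 per library, and the 56 genes took 1.12% to 1.22% of them. Fewer genes were detected in CEP replicate 2 (22230) and CEP+4SU replicate 2 (22627) than in any other library (24376 or more). These libraries stood apart, and the counts of members past the threshold, the GC correlations and most of the larger differences with CEP are also given without the pair. The neuronal filament genes NEFM (37.9 FPKM in DMSO) and NEFL (28.1 FPKM), known to be expressed in HEK293T cells, were present. The kidney progenitor genes PAX2, LHX1 and EYA1 were low at 0.967 to 1.54 FPKM. The group means of 8 markers of blood, red cells, liver, muscle, endothelium, fibroblasts and astrocytes did not exceed 1.25 FPKM, and COL1A2 was listed at 0 in DMSO, CEP and CEP+4SU.

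The machinery was abundantly expressed in DMSO. FPKM values, fragments scaled to gene length and library size, compare genes per unit length, and the median of the 56 DMSO means was 27.0 FPKM. NPM1, the nucleolar histone chaperone nucleophosmin, was highest at 618 ± 26.9 FPKM (SD, n = 3). NCL, which encodes nucleolin, followed at 240 ± 4.87 FPKM, then FBL, the methyltransferase of box C/D snoRNPs, at 172 ± 1.82 FPKM. GNL3, the nucleolar GTPase nucleostemin, came next at 127 ± 2.69 FPKM. The intervals of mean ± SD of these 4 genes did not overlap.

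**Figure D1:**
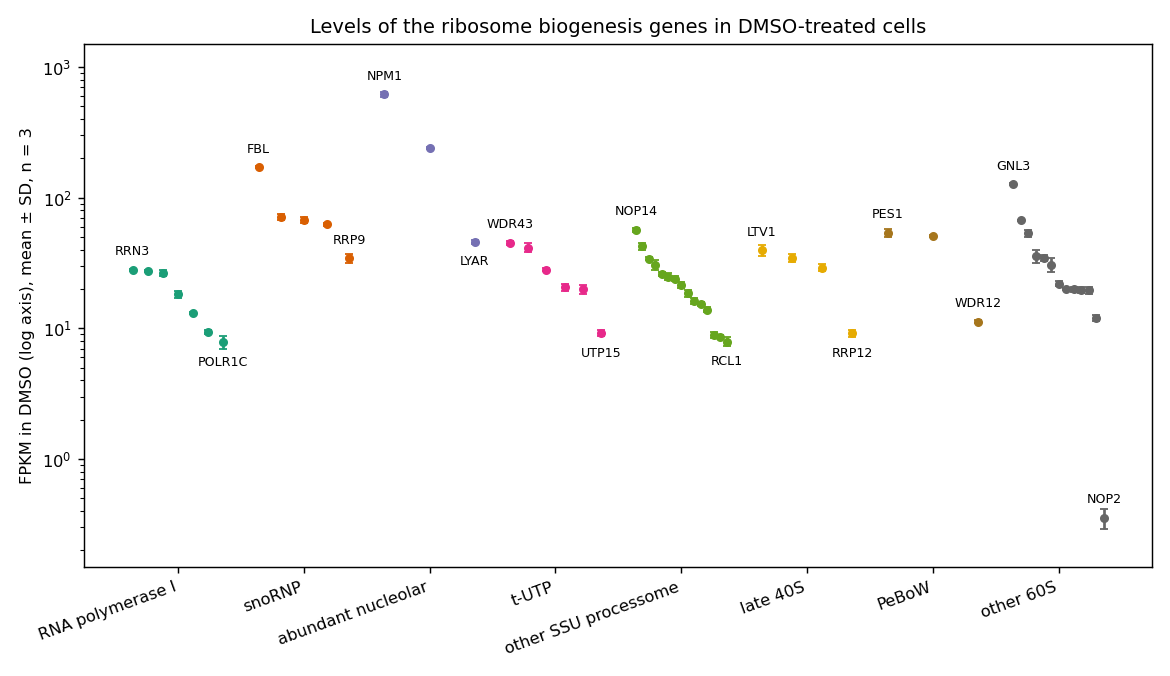
Mean FPKM in the 3 DMSO libraries (log axis) of each of the 56 genes, grouped by role and ordered within a role, with the SD as error bars; the highest and lowest gene of each role are named. The abundant nucleolar proteins and snoRNP proteins lay above most of the RNA polymerase I genes, and NOP2 lay far below the rest at 0.355 FPKM.

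Levels differed between roles. The snoRNP proteins had a median of 67.9 FPKM, from RRP9, a protein bound to U3 snoRNA (34.3 ± 2.73 FPKM), to FBL. The RNA polymerase I genes had a median of 18.2 FPKM, from POLR1C, a subunit shared with RNA polymerase III (7.86 ± 0.909 FPKM), to RRN3 (28.2 ± 0.474 FPKM). The t-UTP genes, whose products bind the precursor while it is being transcribed, had a median of 24.4 FPKM, from UTP15 (9.16 ± 0.490 FPKM) to WDR43 (45.1 ± 1.64 FPKM). The other SSU processome genes had a median of 21.5 FPKM, from RCL1 (7.93 ± 0.601 FPKM) to NOP14 (57.0 ± 1.98 FPKM). The late 40S genes ran from RRP12 (9.14 ± 0.597 FPKM) to LTV1 (39.8 ± 4.08 FPKM). In PeBoW, a complex of PES1, BOP1 and WDR12 needed for 60S maturation, PES1 (54.0 ± 3.75 FPKM) and BOP1 (50.9 ± 1.07 FPKM) were within their spread of each other. WDR12 was lower at 11.3 ± 0.378 FPKM. The remaining 60S genes had a median of 21.95 FPKM.

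NOP2, the methyltransferase of 28S rRNA, was the exception at the low end, with 7 counts in its lowest library. Its DMSO values were 0.289, 0.365 and 0.411 FPKM. In the annotation, 54.4% of its exon bases are shared with AC006064.6, a gene on the same strand that was listed at 0 FPKM in each group, so its level and its changes are uncertain. Exon bases were shared with another gene in 30 of the 56 members, at 20% or more in 8 of them. Among these, EMG1 shared 49.5% with LPCAT3 and HEATR1 shared 23.2% with LGALS8, both on the opposite strand, and whether counting used strand is not stated. Pseudogenes with a matching symbol exist for 12 members, NPM1 and BMS1 among them, and reads from such copies could be assigned either way.

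Several members also carry other parts of the pathway within the gene, on the same strand. In the annotation, 9 of the 56 hosted 27 snoRNAs. GNL3 hosted 6, NOP56 hosted 5, NOP58 hosted 4, and NCL and WDR43 hosted 3 each.

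A sequence feature that the list did not use was the E-box CACGTG, the canonical binding hexamer of MYC with MAX, which reads the same on both strands. RefSeq (GRCh38.p14) gave promoter windows, from 250 bases before to 50 bases after a start site, for 49 of the 56 genes. URB2, RRP1B, BOP1, NOP58, POLR1E, MPHOSPH10 and RRP12 had none. The hexamer was present for 20 of the 49 (40.8%), against 12.3% of 10950 other protein-coding genes tested and 8.77% of 27305 genes with a window. Of the 23 sites in members, 18 (78.3%) lay within 50 bases of the start, against 37.0% of 1639 sites in the other protein-coding genes tested. The base composition of these windows was alike, with a median GC content of 64.5% in members and 64.7% in the other protein-coding genes tested. The sites that lay wholly upstream of a start are shown with up to 12 bases on each side, ending at the start, with the E-box in capitals, to let their flanks be compared.

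UTP4, t-UTP, chr16:69132621-69132648, plus strand: agagcgcgcgcgCACGTGgggccggggc
NAT10, rRNA acetyltransferase, chr11:34105602-34105628, plus strand: aatgcgcttgcgCACGTGctgtctacc
UTP20, SSU processome, chr12:101280083-101280104, plus strand: cttttttccgtcCACGTGaccc
LYAR, nucleolar protein, chr4:4290068-4290097, minus strand: cggcggcgagtcCACGTGctccccgcggcc
UTP18, SSU processome, chr17:51260445-51260474, plus strand: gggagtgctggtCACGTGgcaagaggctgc
IMP4, U3 snoRNP protein, chr2:130342682-130342711, plus strand: gcggtcctaagtCACGTGtgacattctgta
EBNA1BP2, 60S assembly, chr1:43172790-43172819, minus strand: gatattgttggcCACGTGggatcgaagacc
UTP14A, SSU processome, chrX:129905914-129905940, plus strand: accttgggcCACGTGgaaaccaggggc

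In the first 3 of these genes the hexamer began 16, 15 and 10 bases before the start. It began 64 bases before it in LYAR, 89 in UTP18, 203 in IMP4, 237 in EBNA1BP2 and 241 in UTP14A. In GNL3 and FBL it began at base 7 of the transcript, and in WDR43 at base 4. Genes with the E-box had a median log2 fold change of -0.04 with CEP, -0.06 with 4SU and -0.03 with both. Those with a window but no E-box had medians of 0.01, -0.04 and 0.02. A match of letters is not evidence of binding in these cells.

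With CEP, 0 of the 56 genes passed the threshold of the edgeR quasi-likelihood test (adjusted p of 0.05 or less, Benjamini-Hochberg over the 17729 genes), where 0.0564% of all genes did. DESeq2 called 1 member, NOP16, and 2.63% of all genes with an adjusted p in that tool. At an unadjusted p under 0.05 there were 15 members (26.8%, against 18.6% of all genes), 9 of them above 0 (background 9.79%) and 6 below (background 8.77%). The median log2 fold change of the members was 0.0081, beside -0.0047 for all genes, with 30 members above 0 and 26 below. Without CEP replicate 1, the CEP library with the least slope on GC content, 5 members passed, with NOP16, BOP1 and NOC2L below DMSO and WDR12 and BRIX1 above it. That was 8.93% of the members, against 6.61% of all genes. Without both replicate 2 libraries given CEP 0 passed, where 0.0829% of all genes did.

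With 4SU, 0 of the 56 passed, where 0.00564% of all genes did. DESeq2 also called 0 of the 49 members to which it gave an adjusted p (background 0.425%). At an unadjusted p under 0.05 there were 4 members (7.14%, against 6.5% of all genes), all 4 below 0 (background 3.72%). The median log2 fold change was -0.06, beside -0.01 for all genes, and 43 members (76.8%) lay below 0, as did 51.8% of all genes. The library medians of the members, taken as differences from each gene's DMSO mean, were -0.09, -0.07 and -0.02 with 4SU and 0.02, -0.05 and 0.03 in DMSO, so the groups overlapped. Scaling by library size alone moved the 4SU median to 0.00049, with 28 members on each side of 0.

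With both compounds, 1 of the 56 genes passed (1.79%), where 1.64% of all genes did. DESeq2 called 9 of the 56 (16.1%, against 10.6% of all genes with an adjusted p in that tool). Without both replicate 2 libraries given CEP, edgeR called 0 (background 0.863%). The gene that passed in the main fit was BOP1, which lay below DMSO, and 0.993% of all genes passed in that direction. At an unadjusted p under 0.05 there were 18 members (32.1%, against 21.4% of all genes), 10 above 0 (background 10.5%) and 8 below (background 10.8%). The median log2 fold change was 0.01, beside 0.00 for all genes, with 29 members above 0 and 27 below.

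Each compound was also averaged over the other, so that 6 libraries with it were set against 6 without. For CEP, 0 members passed (background 0.276%) and 13 did with DESeq2 (23.2%, against 15.6% of all genes). At an unadjusted p under 0.05 there were 22 (39.3%, against 24.3% of all genes), 15 above 0 (background 13.5%) and 7 below (background 10.8%). For 4SU, 0 members passed (background 0.558%), as with DESeq2 (background 2.6%), and 8 had an unadjusted p under 0.05 (14.3%, against 12.6% of all genes), 2 above 0 (background 5.66%) and 6 below (background 6.95%). The interaction of the compounds called 0 members and 0 of all genes (background 0%) with edgeR, and 0 members with DESeq2 (background 0%); 1 member, above 0, had an unadjusted p under 0.05, where 2.63% of all genes did and 1.29% did so above 0.

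**Figure D2:**
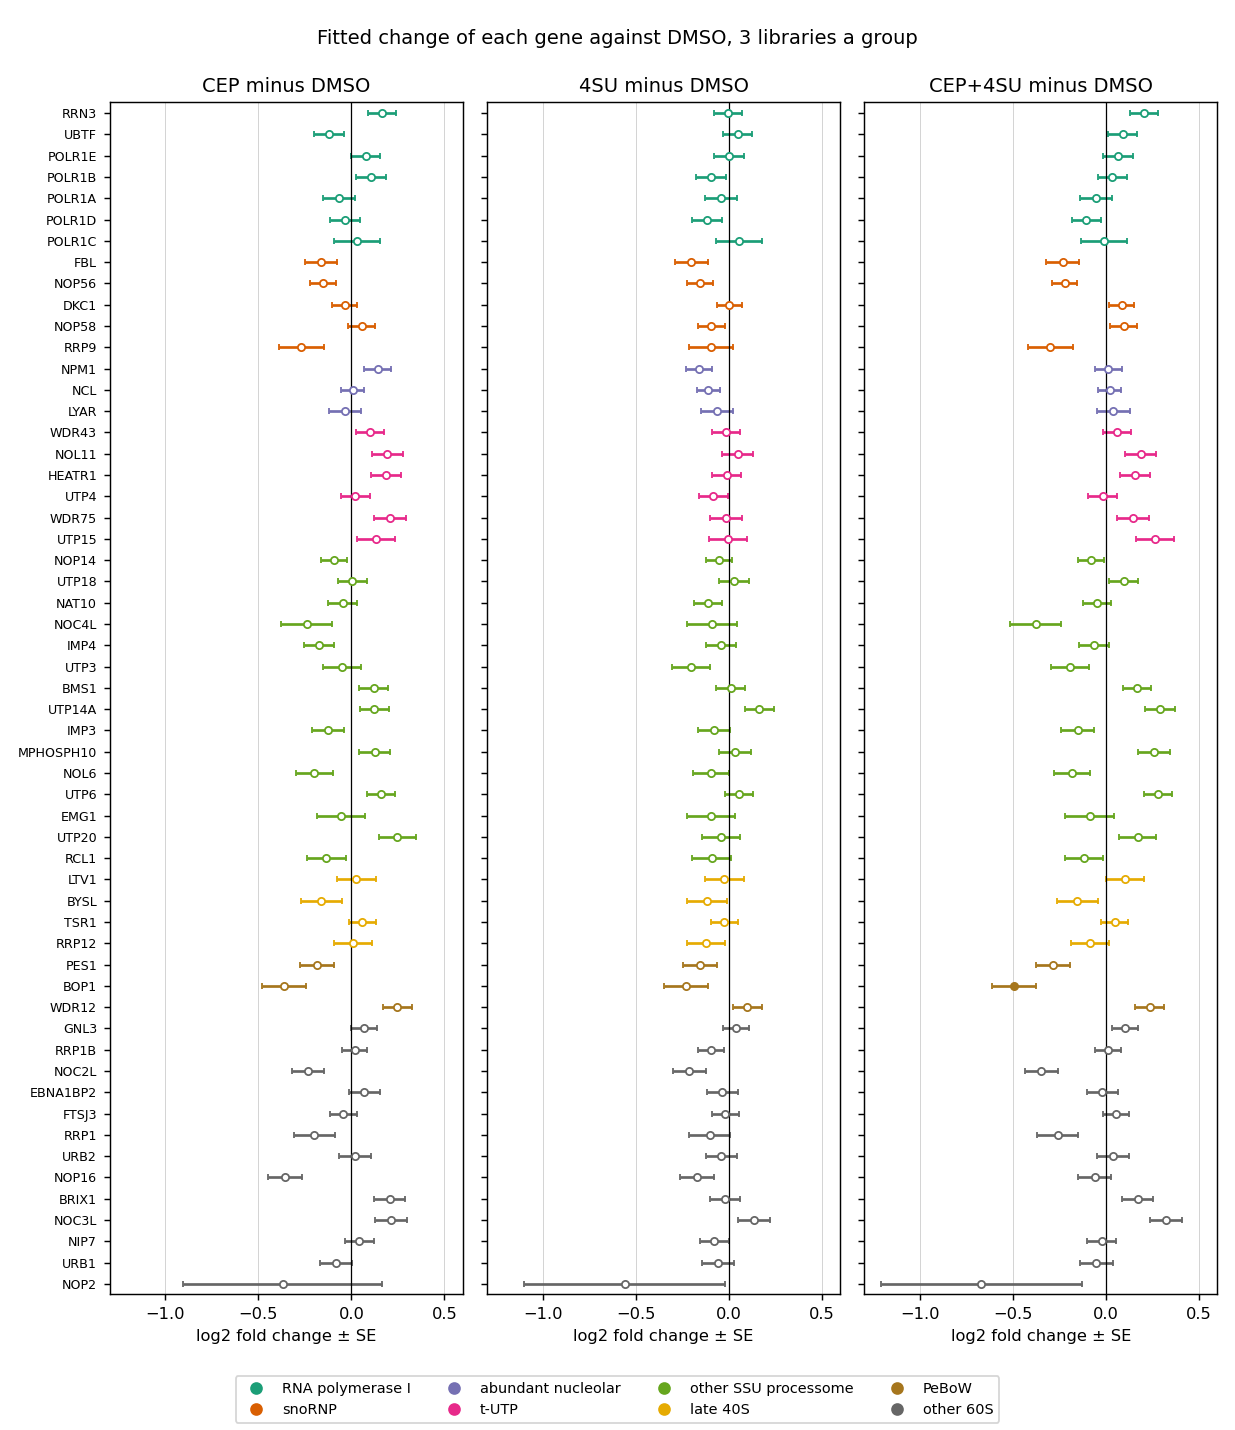
Fitted log2 fold change against DMSO (horizontal axis, ± SE) of each of the 56 genes with CEP, 4SU and both, coloured by role. The filled point is BOP1 with both compounds, the call that passed at an adjusted p of 0.0449; open points did not pass, and NOP2 has the widest error (SE 0.54).

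RNA polymerase I and its factors did not pass with edgeR in any comparison (7 genes, lowest adjusted p 0.0786), and DESeq2 called RRN3 for CEP averaged over 4SU (adjusted p = 0.0235). Their log2 fold changes ran from -0.12 to 0.16 with CEP, -0.11 to 0.06 with 4SU and -0.10 to 0.20 with both, with SEs of 0.08 to 0.12. RRN3, which recruits the polymerase to the promoter, measured 28.2, 27.7 and 28.7 FPKM in DMSO and 30.8, 32.7 and 31.0 with CEP. It measured 26.8, 28.6 and 29.5 with 4SU and 30.1, 35.4 and 31.8 with both. The 6 values with CEP lay above the 6 without it, and the log2 difference of CEP averaged over 4SU was 0.19 ± 0.05 (edgeR adjusted p = 0.0786). With the GC trend removed it was 0.06 (adjusted p = 0.707), and without both replicate 2 libraries given CEP it was 0.13 (0.229). UBTF, the factor that opens ribosomal DNA, measured 27.6, 27.2 and 27.8 FPKM in DMSO and 27.7, 25.1 and 22.8 with CEP. With 4SU it measured 28.5, 27.6 and 29.7, and with both 28.99, 27.6 and 31.2. The groups overlapped, and the interaction was 0.16 ± 0.11 on the log2 scale (unadjusted p = 0.162).

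The largest subunit POLR1A differed from DMSO by -0.07, -0.04 and -0.05 on the log2 scale with CEP, 4SU and both. The second largest, POLR1B, differed by 0.10, -0.09 and 0.04. POLR1C and POLR1D, both shared with RNA polymerase III, differed by 0.03, 0.06 and -0.01 and by -0.03, -0.11 and -0.10. POLR1E differed by 0.08, 0.00 and 0.06. Each of these 15 differences was within 2 of its SEs.

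The snoRNP proteins split. FBL and NOP56, core proteins of box C/D particles, and RRP9, of the U3 particle, had lower means in each treated group than in DMSO. The means of NOP58 and DKC1 lay on both sides of it. FBL, NOP56 and RRP9 had GC contents of 56.4%, 52.1% and 60.9%, and NOP58 and DKC1 had 42.1% and 48.3%. With edgeR 0 of the 5 passed, and DESeq2 called NOP56 with both compounds (adjusted p = 0.0233) and RRP9 for CEP averaged over 4SU (0.0485). FBL measured 174, 171 and 170 FPKM in DMSO and 171, 128 and 160 with CEP. It measured 159, 146 and 146 with 4SU and 149, 139 and 150 with both. Each library with 4SU lay below the DMSO libraries, while CEP replicate 1 overlapped them. FBL differed from DMSO by -0.20 ± 0.09 with 4SU (adjusted p = 0.748) and -0.23 ± 0.09 with both (adjusted p = 0.135). With the GC trend removed these were -0.16 (0.442) and -0.13 (0.38).

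NOP56 measured 76.3, 69.6 and 69.1 FPKM in DMSO and 66.0, 63.8 and 63.0 with CEP. It measured 64.6, 64.2 and 65.3 with 4SU and 62.6, 57.1 and 64.7 with both. The 9 treated libraries lay below the 3 DMSO libraries, and the log2 differences were -0.15 ± 0.07 (adjusted p = 0.243), -0.16 ± 0.07 (0.751) and -0.22 ± 0.07 (0.0872). With the GC trend removed they were -0.12 (0.65), -0.15 (0.355) and -0.20 (0.0811). RRP9 differed by -0.27 ± 0.12, -0.09 ± 0.12 and -0.30 ± 0.12 with CEP, 4SU and both. With the GC trend removed these were -0.07, -0.03 and -0.11, and RRP9 differed by -0.08 for CEP averaged over 4SU (adjusted p = 0.723). NOP58, the partner of NOP56, differed by 0.06, -0.09 and 0.10, each with an SE of 0.07. DKC1, the pseudouridine synthase of H/ACA particles, differed by -0.04, 0.00 and 0.08, also with SEs of 0.07. With the GC trend removed NOP58 differed by -0.10, -0.13 and -0.05, and DKC1 by -0.07, -0.01 and 0.05.

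Among the abundant nucleolar proteins NPM1 showed the widest range. It measured 646, 592 and 616 FPKM in DMSO and 641, 677 and 723 with CEP. It measured 540, 577 and 552 with 4SU and 568, 692 and 611 with both. The 4SU libraries lay below those of DMSO and CEP without overlap, but CEP+4SU overlapped them. NPM1 differed by -0.14 ± 0.05 on the log2 scale with 4SU averaged over CEP (adjusted p = 0.223), and by 0.16 ± 0.05 with CEP averaged over 4SU (adjusted p = 0.0897). After removal of each library's trend on GC content the 4SU difference was -0.16 with an adjusted p of 0.0198, where 3.91% of all genes passed, and that of CEP was 0.02. Without both replicate 2 libraries given CEP, the 4SU difference was -0.18 (adjusted p = 0.0408, background 1.23%) and that of CEP 0.12 (0.229). DESeq2 called the CEP difference (0.0436). NCL differed by 0.01 ± 0.06, -0.11 ± 0.06 and 0.02 ± 0.06 with CEP, 4SU and both, and LYAR by -0.04, -0.06 and 0.04, with SEs of 0.09.

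The t-UTP genes lay on one side with CEP. The 6 of 6 fitted differences were above 0, against 49.4% of all genes. Of the 28 members at or below the members' median GC content, these 6 among them, 24 lay above 0. The t-UTP median was 0.16 on the log2 scale, from UTP4 (0.02 ± 0.08) to WDR75 (0.21 ± 0.09). Of the 6, 3 had an unadjusted p under 0.05, where 9.79% of all genes did so above 0. With edgeR 0 of the 6 passed, and DESeq2 called HEATR1 (adjusted p = 0.0352) and WDR75 (0.044) for CEP averaged over 4SU. With 4SU their median was -0.01 and with both it was 0.15. Their GC content was lower than that of the other roles, with a median of 40.8% against 42.7% to 57.1%. After removal of the GC trend their median with CEP was -0.02. Without both replicate 2 libraries given CEP it was 0.10, with 5 of the 6 above 0.

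Among the other 15 SSU processome genes the differences with CEP ran from -0.24 to 0.25, and 0 passed with edgeR in any of the 6 comparisons. DESeq2 called UTP6, UTP14A and MPHOSPH10 with both compounds, and UTP6, UTP20 and NOC4L for CEP averaged over 4SU. UTP6 measured 14.3, 13.3 and 14.2 FPKM in DMSO and 14.9, 16.2 and 15.5 with CEP. It measured 14.04, 14.4 and 15.2 with 4SU and 16.6, 17.9 and 16.3 with both. The libraries with both compounds lay above the other 9, and the difference from DMSO was 0.28 ± 0.08 (adjusted p = 0.0632). It was 0.15 with the GC trend removed (0.226) and 0.24 without both replicate 2 libraries given CEP (0.121). UTP14A, which recruits a helicase to the processome, differed from DMSO by 0.29 ± 0.08 with both (adjusted p = 0.0652) and by 0.17 ± 0.06 with 4SU averaged over CEP (adjusted p = 0.195). It ranged from 20.5 to 22.4 FPKM in DMSO and from 24.5 to 27.2 with both. Reads could be shared with UTP14C, a retrocopy measured at 1.82 ± 0.193 FPKM in DMSO.

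The late 40S genes BYSL, LTV1, RRP12 and TSR1 differed from DMSO by -0.16 to 0.10 over the 3 treated groups, and 0 of the 4 passed with edgeR or DESeq2 or had an unadjusted p under 0.05 in any comparison.

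The PeBoW genes lay on both sides of DMSO. BOP1 (chr8:144262102-144291370, minus strand) measured 50.9, 49.8 and 52.0 FPKM in DMSO and 47.3, 35.2 and 35.96 with CEP. It measured 47.8, 40.9 and 42.4 with 4SU and 41.1, 29.03 and 38.3 with both. The 9 treated libraries lay below the 3 DMSO libraries. BOP1 fell with both compounds by 0.49 ± 0.12 on the log2 scale (adjusted p = 0.0449). It differed by -0.36 ± 0.12 with CEP (adjusted p = 0.181) and -0.23 ± 0.12 with 4SU (adjusted p = 0.783), and the interaction was 0.10 ± 0.17. BOP1 had the highest GC content of the 56 genes, 65.3%, and with the GC trend removed the difference with both was -0.20 (adjusted p = 0.0722). In the same fit BOP1 passed for 4SU averaged over CEP at -0.14 (adjusted p = 0.0407), and DESeq2 called it with both (0.00357). The edgeR call with both was lost on leaving out DMSO replicate 1, 2 or 3, at differences of -0.51 to -0.47 (adjusted p = 0.133 to 0.173), and without CEP+4SU replicate 3 at -0.55 (0.0841). It was also lost at -0.36 without CEP+4SU replicate 2 (0.187) and at -0.36 without both replicate 2 libraries given CEP (0.0576).

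PES1 ranged from 50.6 to 58.0 FPKM in DMSO and from 39.7 to 47.0 with both, and differed by -0.29 ± 0.09 (adjusted p = 0.0958), a difference that DESeq2 called (0.0363) and that was -0.17 with the GC trend removed (0.193). WDR12 measured 11.2, 11.7 and 10.99 FPKM in DMSO and 12.3, 14.1 and 13.7 with CEP. It differed by 0.25 ± 0.08 with CEP (adjusted p = 0.178) and 0.24 ± 0.08 with both (adjusted p = 0.107). With the GC trend removed these were 0.06 (0.851) and 0.07 (0.657), and without both replicate 2 libraries given CEP 0.21 (0.216) and 0.21 (0.193). DESeq2 called WDR12 with both (0.0465) and for CEP averaged over 4SU (0.0256). The GC content of PES1 was 57.1% and that of WDR12 40.8%.

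The other 60S genes also lay on both sides of DMSO. NOC2L, whose product escorts early 60S particles in pairs with other NOC proteins, measured 56.1, 49.5 and 54.9 FPKM in DMSO and 51.3, 43.5 and 41.4 with CEP. It measured 48.2, 45.4 and 45.8 with 4SU and 44.3, 37.8 and 44.1 with both. The 4SU and CEP+4SU libraries lay below DMSO without overlap, and NOC2L missed the threshold with both compounds at -0.35 ± 0.09 (adjusted p = 0.0502). It passed in 8 of 17 alternatives, with adjusted p from 0.00261 to 0.223 over them, DESeq2 among them (0.0063). It was -0.20 with the GC trend removed (0.0893) and -0.27 without both replicate 2 libraries given CEP (0.0979). Its relative NOC3L measured 19.3, 19.1 and 20.9 FPKM in DMSO and 22.6, 28.2 and 23.4 with both. This difference was 0.32 ± 0.09 (adjusted p = 0.0636), and DESeq2 called it (0.0127). It was 0.09 with the GC trend removed (0.544) and 0.22 without both replicate 2 libraries given CEP (0.166). NOC2L and NOC3L had GC contents of 58.7% and 37.8%.

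NOP16 had the smallest interaction p of the 56 genes. It measured 19.96, 19.8 and 20.5 FPKM in DMSO and 17.4, 14.03 and 15.5 with CEP. It measured 17.9, 18.1 and 17.9 with 4SU and 20.5, 18.1 and 19.3 with both. CEP libraries lay below those of every other group, at -0.36 ± 0.09 from DMSO (adjusted p = 0.173). It passed with DESeq2 (0.0332), with no low-count filter (0.0312), with the replicate block (0.0276) and without CEP replicate 1 (0.021). It was -0.29 with the GC trend removed (0.25) and -0.29 without both replicate 2 libraries given CEP (0.164). The interaction was 0.47 ± 0.13 (unadjusted p = 0.00158, adjusted p = 1). BRIX1 differed by 0.20 ± 0.06 with CEP averaged over 4SU (adjusted p = 0.0775), and DESeq2 called it (0.0242). With the GC trend removed it was 0.02 (0.92), and without both replicate 2 libraries given CEP 0.15 (0.228). GNL3 differed by 0.07, 0.04 and 0.10 with CEP, 4SU and both, each with an SE of 0.07.

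**Figure D3:**
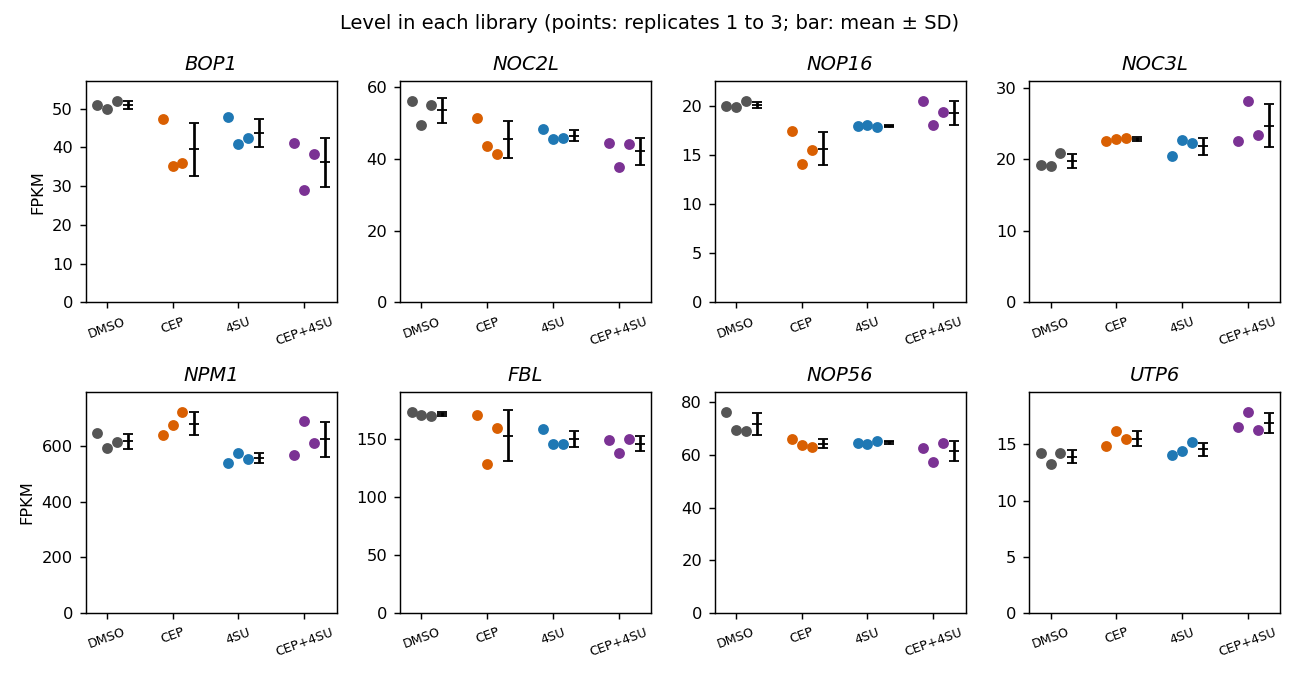
FPKM in each library (vertical axes from 0) of 8 genes, with replicates 1 to 3 as points and the mean ± SD beside them. BOP1, NOC2L and NOP56 were below DMSO in most treated libraries. UTP6 lay highest with both compounds, as did the mean of NOC3L, whose libraries overlapped other groups. NOP16 was lowest with CEP alone at 14.03 to 17.4 FPKM.

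The opposite directions followed GC content. The transcripts of the 56 genes had a median GC content of 48.7%, from 37.8% in NOC3L to 65.3% in BOP1, beside a median of 49.3% over the genes tested. The 9 members above 0 at an unadjusted p under 0.05 with CEP had GC contents of 37.8% to 42.9%, and the 6 below 0 had 52.1% to 65.3%. Across the 56 genes, Pearson's r between GC content and log2 fold change came to -0.86 with CEP, to -0.49 with 4SU and to -0.79 with both. For CEP averaged over 4SU it was -0.90 and for 4SU averaged over CEP it was -0.41. The genes share libraries, so these values describe the libraries and are not replicated over genes.

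Genes outside the list showed the same trend. Per 10 percentage points of GC, the log2 fold change with CEP dropped by 0.19 in the members and by 0.20 in all genes, and with both compounds it dropped by 0.22 and 0.19. Without both replicate 2 libraries given CEP the members' r was -0.82 for CEP, -0.67 for both and -0.84 for CEP averaged over 4SU, and their slope was -0.15 for CEP and -0.15 for both. Across 12677 protein-coding genes in the members' range of expression r was -0.69 for CEP and -0.62 for both. The 28 members at or below the median GC content had a median log2 fold change of 0.11 with CEP, with 24 of the 28 above 0. The 28 above it had a median of -0.13, with 22 of the 28 below 0. After each library's trend on GC content was removed, r was -0.01 for CEP and -0.26 for both. The removal brings r over all genes near 0 by design, so these values do not test the source of the trend. It would also take out any effect of a treatment that tracked GC content.

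**Figure D4:**
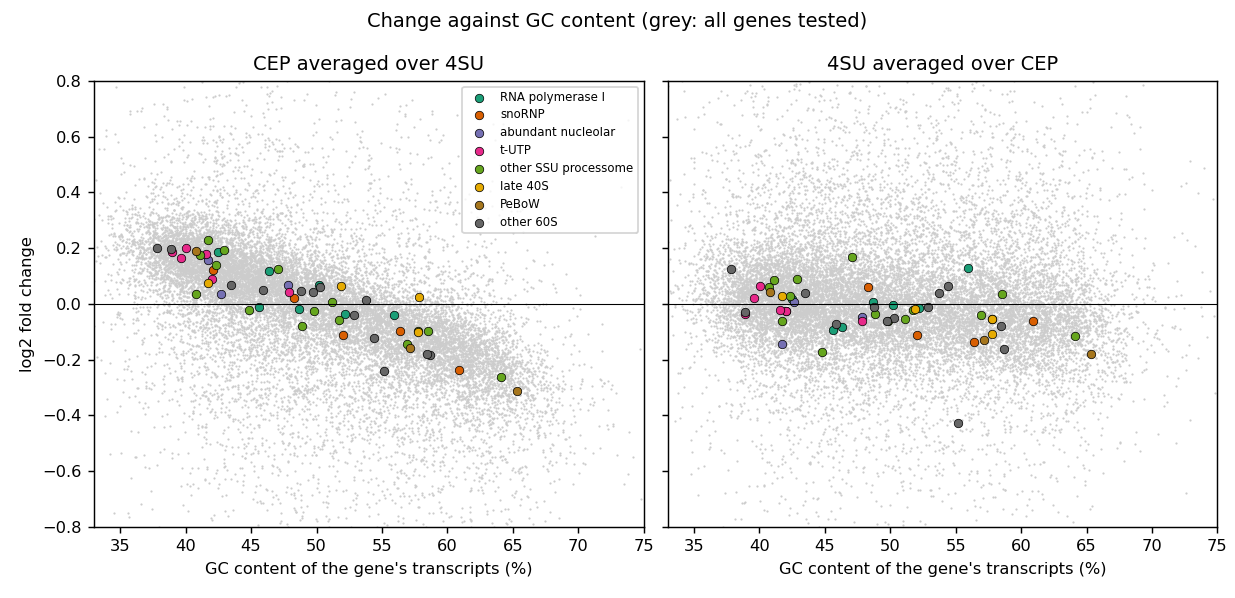
Log2 fold change (vertical axis) against the GC content of the gene's transcripts in percent (horizontal axis), for CEP averaged over 4SU and 4SU averaged over CEP, with the 56 genes coloured by role and all genes tested in grey; genes beyond the axes are not drawn. With CEP the coloured points descend from left to right with r = -0.90 along the grey cloud, and with 4SU the slope is shallower (r = -0.41).

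The size of this trend differed between libraries of one group. Over all genes, the slope against the DMSO mean per 10 points of GC was -0.07 in CEP replicate 1, -0.29 in replicate 2 and -0.23 in replicate 3. It was -0.07, -0.35 and -0.14 in the CEP+4SU replicates, 0.01, -0.12 and -0.09 in the 4SU replicates, and -0.0019 to 0.0011 in DMSO. The 2 steepest slopes were those of the libraries with the fewest genes detected. In CEP replicate 2 the members of lower GC content had a median of 0.19 and those of higher GC content -0.18. In CEP replicate 1 these medians were 0.07 and 0.02. The part that library preparation had in the GC trend was not tested.

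**Figure D5:**
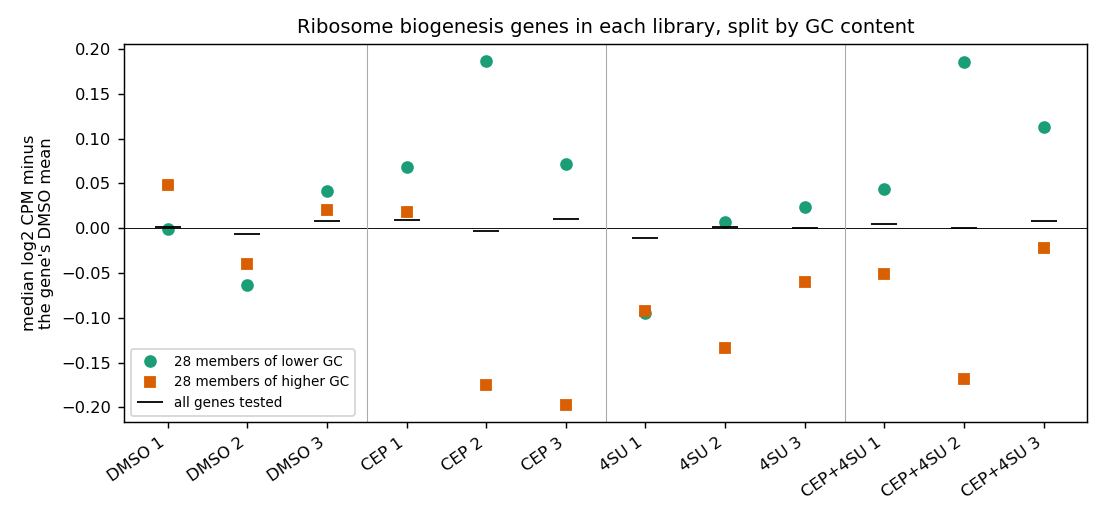
Median over the 28 members of lower and the 28 of higher GC content, in each of the 12 libraries, of log2 CPM (counts scaled to library size) minus the gene's DMSO mean (vertical axis), with the median of all genes tested as a dash. The medians separate most in both replicate 2 libraries given CEP and in CEP replicate 3, and lie between -0.06 and 0.05 in DMSO.

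Of 99 further genes of the pathway, covering the remaining RNA polymerase I subunits and factors (14), snoRNP proteins (12), 40S factors (24), 60S factors (27) and the exosome with RNase MRP (22), 0 passed with edgeR for CEP and 0 for 4SU. DESeq2 called 2 and 0, where 2.63% and 0.425% of all genes with an adjusted p in that tool were called. With edgeR 22 and 6 had an unadjusted p under 0.05 (background 18.6% and 6.5%). With both compounds 3 passed with edgeR (background 1.64%) and 8 with DESeq2 (background 10.6%). EXOSC6, an exosome subunit, fell by 0.42 ± 0.08 on the log2 scale (adjusted p = 0.0237), from 20.4 ± 0.791 to 15.2 ± 0.858 FPKM. Its call was lost in 5 of 17 alternatives, those without a DMSO library or without CEP+4SU replicate 2 or 3 (adjusted p = 0.0735 to 0.118), with differences of -0.50 to -0.38 over the 17. WDR18, of a 60S processing complex, fell by 0.50 ± 0.12 (adjusted p = 0.0472), from 39.2 ± 0.989 to 27.7 ± 5.42 FPKM. Its call was lost in 9 of 17: with library size alone (0.0502), without a DMSO library (0.134 to 0.184), without CEP+4SU replicate 2 (-0.35, 0.2) or replicate 3 (-0.55, 0.09), without both replicate 2 libraries given CEP (-0.35, 0.0642) and with the GC trend removed (-0.22, 0.0799) or with the block as well (-0.22, 0.0755). NOL8, a nucleolar protein, rose by 0.36 ± 0.09 (adjusted p = 0.0428), from 11.6 ± 0.436 to 14.9 ± 1.11 FPKM. Its call was lost in 8 of 17: without a DMSO library (0.13 to 0.184), without CEP+4SU replicate 2 (0.32, 0.174) or replicate 3 (0.34, 0.1), without both replicate 2 libraries given CEP (0.32, 0.0576) and with the GC trend removed (0.21, 0.191) or with the block as well (0.21, 0.177). In these brackets a fold change on the log2 scale, where given, comes before the edgeR adjusted p. The median log2 fold changes of the 99 genes were 0.02 for CEP, -0.04 for 4SU and 0.05 for their combination. In the same order, r with GC content was -0.83, -0.63 and -0.82. The ribosomal RNA precursor, the product of RNA polymerase I, was not analysed here.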

How the data were processed

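RNA-Seq of the 12 HEK293T libraries was used, 3 per group, with group and replicate taken from the sample labels. Per the authors' methods and processing notes, reads with adapter, poly-N or poor-quality sequence were dropped, HISAT2 2.0.5 aligned the rest to GRCh38 and featureCounts 1.5.0-p3 counted them on genes. The deposited counts are whole and not normalized. The deposited FPKM values derive from these counts, divided by the authors by gene length and an adjusted library size. A table of the authors' group means was not used.

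Counts were filtered (filterByExpr, minimum count 10, minimum total 15), TMM-normalized and fitted over the 4 groups with edgeR 4.0.16 (R 4.3.3). Quasi-likelihood tests were two-sided, with Benjamini-Hochberg adjustment over 17729 genes and a threshold of 0.05. SEs are the fold change divided by the root of F. The design text calls the replicates independent, and p-values measure the spread between these samples alone. The tests were tested on simulated data. GC content came from GENCODE 29 transcripts, and promoter windows from RefSeq.

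The members, their roles and the other lists were chosen with earlier results of these data known. Named were the RNA polymerase I and snoRNP genes, the members called or with the 3 smallest p-values per comparison, the highest and lowest DMSO level per role, and other pathway genes called. Further members were named after their values were seen. Alternatives were DESeq2 1.42.0, other normalizations and filters, a replicate block, removal of GC or length trends and each library left out. Leaving out both replicate 2 libraries given CEP was chosen after seeing the data. One marker of the cell type lists is not reported here.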

Additional observations from a re-analysis of the deposited data

How the results depend on the processing

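For CEP, the count of members called was 0 with edgeR, 1 with DESeq2, 2 with no low-count filter (1.86% of all genes) and 3 with the replicate block (4.4%). For CEP and 4SU together, it was 1 with edgeR and 9 with DESeq2. It was 2 with upper-quartile normalization (1.76% of all genes) and with at least 10 counts in every library (2.27%). It was also 2 with the length trend removed (1.53%) and with only the 6 libraries compared (3.36%). It was 4 with library size alone (1.95% of all genes), 5 with no low-count filter (3.46%) and 13 with the replicate block (9.4%). It was 0 with the GC trend removed (1.21% of all genes) and 0 with the replicate block as well (1.73%). Without both replicate 2 libraries given CEP it was 0 (0.863%). For CEP averaged over 4SU, it was 0 with edgeR, 13 with DESeq2, 5 with no filter (4.06%) and 16 with the replicate block (12.8%). For 4SU averaged over CEP, it was 2, NPM1 and BOP1, with the GC trend removed, with or without the block (4.11% and 3.91%), and 1 without both replicate 2 libraries given CEP. For 4SU and for the interaction it was 0 under every alternative run.

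Libraries of the same replicate number were at most weakly alike: of 18 such pairs, 1 had a correlation of deviations over 0.1 (range -0.047 to 0.141). Between treated groups, same-numbered pairs of replicates 1 and 2 ran from 0.044 to 0.141, and those of replicate 3 from -0.047 to 0.011. Pairs of a replicate 1 with a replicate 2 ran from -0.158 to -0.037. Deviations within a group of 3 sum to 0, so positive same-numbered pairs by themselves push other pairs below 0. Whether the replicate number marks a shared batch was not tested. With the block, 780 of all genes were called for CEP, 1667 for both compounds and 2269 for CEP averaged over 4SU. The count with each library left out in turn ranged from 0 to 5 for CEP, with 5 without CEP replicate 1, and from 0 to 4 for both compounds. It was 4 without CEP+4SU replicate 1 (4.42% of all genes) and 0 without CEP+4SU replicate 2 (0.176%) or 3 (0.0929%). Without any one DMSO library it was also 0 (0.0766% to 0.115% of all genes). For CEP averaged over 4SU it ranged from 0 to 14, with 14 without CEP replicate 1 (11.8%) and 5 without CEP+4SU replicate 1 (6.16%).

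The members' median log2 fold change moved beyond the spread between replicates (SD 0.0391) in 6 cases. It was -0.0346 for CEP and -0.0319 for both compounds with the GC trend removed, and -0.0350 and -0.0315 with the block as well. With library size alone it was 0.00049 for 4SU and 0.0174 for 4SU averaged over CEP. Gene results called with edgeR, or among the 3 smallest p-values of their comparison, kept their sign under the alternatives run. Some results of other members changed sign with the GC trend removed. With CEP, NPM1 went from 0.14 to -0.03 and NOC3L from 0.21 to -0.01. With 3 libraries a group, SEs were 0.06 or more against DMSO, which limits what could be called. The cause of these differences was not tested.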
